A study of Rattus norvegicus with 20 samples.

Results

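Matrix proteases and their inhibitors were followed through 10 genes, given by name, of the 26243 genes named on the array: the metalloproteinases Mmp2, Mmp3, Mmp9 and Mmp14, the inhibitors Timp1, Timp2, Timp3 and Timp4, and the aggrecanase family members Adamts1 and Adamts4. Total RNA of whole mesenteric artery, the vessel bed that feeds the intestine, was hybridised to 20 single-colour Agilent rat arrays, in 5 groups of 4 rats. The groups were stroke-prone spontaneously hypertensive rats (SHRSP/Izm), spontaneously hypertensive rats (SHR/Izm), normotensive Wistar-Kyoto rats (WKY/Izm) with 1 kidney and a clip (1K1C), WKY/Izm with 2 kidneys and a clip (2K1C), and WKY/Izm without operation, called WKY here. A clip narrows a renal artery, and 1K1C also lacks the other kidney. All rats were labelled as 6 weeks old, and the labels also give a period of 3 weeks. Whether the age is that at the start or the end of these weeks is not clear from the labels, and no sham operation is named. The labels call the arrays biological replicates.

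The vessel wall is held together by collagens, elastin and proteoglycans. Matrix metalloproteinases (MMPs) are made as inactive proenzymes and cut these proteins once activated. Tissue inhibitors of metalloproteinases (TIMPs) bind the active site of the enzymes and block it. Mmp14 sits in the cell membrane and, with Timp2 as an adaptor, activates pro-Mmp2. The ADAMTS enzymes are secreted relatives of the MMPs that cut proteoglycans such as versican and aggrecan, and Timp3 inhibits several of them. Changes in the balance of these enzymes and inhibitors are known from remodelling of arteries in hypertension.

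Levels are given as log2 signals relative to the 75th percentile of the array, differences as log2 differences with their SE, and a gene was called where limma's adjusted p was under 0.05. Levels of different genes come from different probes and are not comparable with each other. Of the 10 genes, 7 were bright enough to be tested (Mmp2, Mmp14, Timp1, Timp2, Timp3, Timp4 and Adamts1), each well above background on all 20 arrays. Mmp3, Mmp9 and Adamts4 were not, and are described by their arrays. The 3 slides held 2K1C alone, 1K1C with WKY, and SHR with SHRSP, so that slide and group cannot be told apart for SHRSP, SHR or 2K1C against WKY or for 1K1C against 2K1C. The remaining pairs, 1K1C with WKY and SHRSP with SHR, each shared a slide but took 1 row of it per group, and there group and row cannot be told apart. Smooth muscle markers such as Myh11 and Acta2 were well above background on all arrays (7 of 7 markers), and their summed level, in units of the array's 75th percentile, ran from 139 to 316 in SHRSP, 79.2 to 325 in SHR, 20.2 to 168 in 1K1C, 110 to 312 in 2K1C and 117 to 227 in WKY. In whole tissue, fewer cells of a type and less RNA per cell cannot be told apart.

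None of the 7 tested genes was called by limma in any of the 6 comparisons. In SHRSP against WKY 2.39% of the 16424 tested genes were called, in SHR against WKY 1.84%, in 1K1C against WKY 0%, in 2K1C against WKY 0.0122%, in SHRSP against SHR 0.359% and in 1K1C against 2K1C 0%. At an unadjusted p under 0.05, Timp3 and Adamts1 were higher in SHRSP than in WKY (2 of 7, beside 16.7% of all genes in either direction), and Timp3, Timp4 and Adamts1 were higher in SHR than in WKY (3 of 7, beside 14%). Mmp2 was higher in 1K1C than in WKY at that threshold (1 of 7, beside 9.09%), and Timp3 and Timp4 were higher in 2K1C than in WKY (2 of 7, beside 22%). Timp4 was lower in SHRSP than in SHR (1 of 7, beside 3.56%), and Timp3 was lower in 1K1C than in 2K1C (1 of 7, beside 21.5%). The 4 comparisons with WKY share the same 4 WKY arrays. When arrays were weighted by their likeness to the rest of their group, limma called 3 of the 7 in SHRSP against WKY (Timp1, Timp3 and Adamts1), 4 in SHR and 4 in 2K1C against WKY (Timp1, Timp3, Timp4 and Adamts1) and 2 in SHRSP against SHR (Timp4 and Adamts1), while the number of genes called in all was 5447, 7509, 4723 and 863 in these comparisons.

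**Figure D1:**
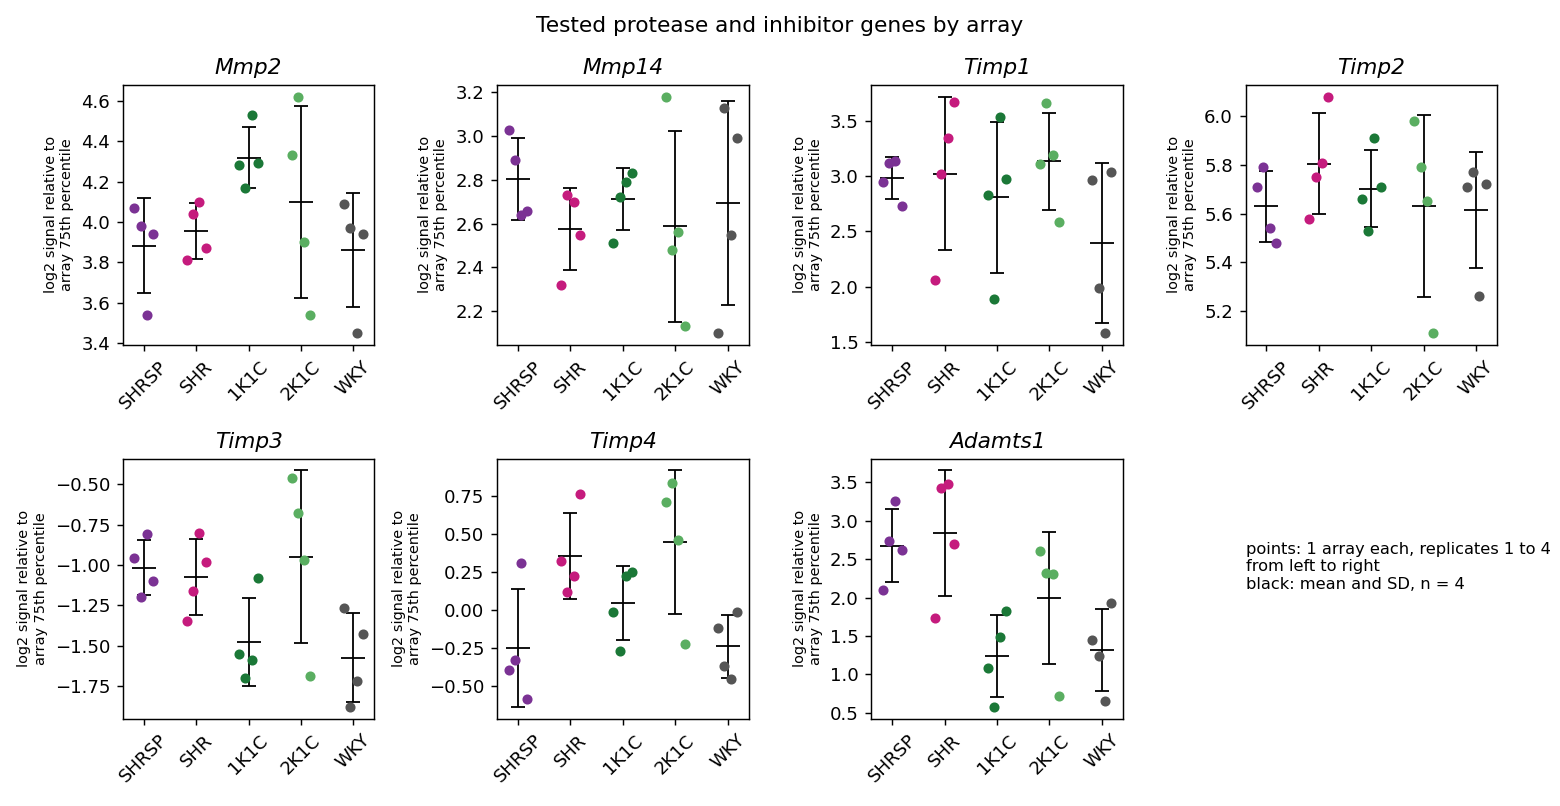
Level of the 7 tested genes on each array (points, log2 signal relative to the 75th percentile of the array) with the mean and SD of each group (n = 4), 1 panel per gene with its own axis. Adamts1 lies between 2.10 and 3.25 on the SHRSP arrays, above its highest WKY level of 1.93. 2K1C replicate 4 is the lowest of its group for all 7 genes.

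Adamts1, a secreted protease that cuts versican and aggrecan, had the largest differences of the 7 tested genes in SHRSP and SHR against WKY. Its level was 2.10, 2.73, 3.25 and 2.62 on the SHRSP arrays and 1.74, 3.43, 3.48 and 2.70 on the SHR arrays, against 1.45, 1.24, 0.65 and 1.93 on the WKY arrays. The SHRSP arrays all lay above the WKY arrays, while SHR replicate 1 lay below WKY replicate 4. Adamts1 and Timp3 were the 2 of 7 genes whose SHRSP and WKY arrays did not overlap, beside 11.3% of all tested genes. The difference was 1.36 ± 0.44 in SHRSP (2.56-fold, adjusted p = 0.121) and 1.52 ± 0.44 in SHR (2.86-fold, adjusted p = 0.09). Neither passed the test. Without SHR replicate 1 the SHR difference was 1.88 with an adjusted p of 0.0257, and without WKY replicate 4 it was 1.72 with an adjusted p of 0.0486. Without any other single SHR or WKY array it was 1.3 to 1.56, with adjusted p of 0.144 to 0.293. The call in SHR thus turned on single arrays.

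In the operated rats Adamts1 was 1.09, 0.58, 1.49 and 1.82 on the 1K1C arrays and 2.61, 2.32, 2.31 and 0.72 on the 2K1C arrays. The 1K1C arrays overlapped the WKY arrays, and 3 of the 4 2K1C arrays lay above every WKY array, with replicate 4 at the low end. That array was the lowest of 2K1C for all 7 tested genes and had the lowest smooth muscle sum of 2K1C, 110. The 1K1C difference from WKY was -0.07 ± 0.44 with a 95% interval of -1.0 to 0.85. The 2K1C difference from WKY was 0.67 ± 0.44 (adjusted p = 0.363), and 1.09 without 2K1C replicate 4 (adjusted p = 0.182). It was 0.45 without WKY replicate 3 (adjusted p = 0.649) and 0.47 without 2K1C replicate 1 (adjusted p = 0.572). By group mean the order was SHR, SHRSP, 2K1C, WKY and 1K1C, with 2.84, 2.68, 1.99, 1.32 and 1.25, and groups next to each other in that order overlapped in their arrays. SHRSP against SHR gave -0.16 ± 0.44 (interval -1.08 to 0.76), and 1K1C against 2K1C -0.74 ± 0.44 (adjusted p = 0.335).

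The Adamts1 level was set beside that of immediate early genes, transcription factors and regulators that cells switch on within minutes of a stimulus. Of the 12 listed, 11 were tested and 9 were well above background on all arrays. Their summed level ran from 21.4 to 54.6 in SHRSP, 14.2 to 39.2 in SHR, 10.9 to 15.7 in 1K1C, 16.3 to 47.3 in 2K1C and 8.9 to 16.1 in WKY. SHRSP and 2K1C thus lay above WKY without overlap, and SHR overlapped WKY by replicate 1. The 3 genes whose levels were most like that of Adamts1 over the 20 arrays were Atf3, which is itself in the immediate early list (Pearson r = 0.94), Itpr1, the calcium release channel of the endoplasmic reticulum (r = 0.93), and Mtmr11 (r = 0.93). With the group means removed the same correlations were 0.88, 0.87 and 0.86. The points share the arrays' scaling and tissue make-up. Within 1K1C and within 2K1C, Adamts1 ranked the arrays as the summed smooth muscle level did. Within WKY, SHR and SHRSP it did not. WKY replicate 3, with the highest WKY sum of 227, had the lowest Adamts1 level of 0.65. SHR replicate 4 had the highest SHR sum of 325, and its Adamts1 level of 2.70 lay below those of SHR replicates 2 and 3. SHRSP replicate 4 had the lowest SHRSP sum of 139, while SHRSP replicate 1 had the lowest Adamts1 level of that group, 2.10. The part of tissue handling, of smooth muscle content or of the immediate early genes in the Adamts1 differences was not tested.

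**Figure D2:**
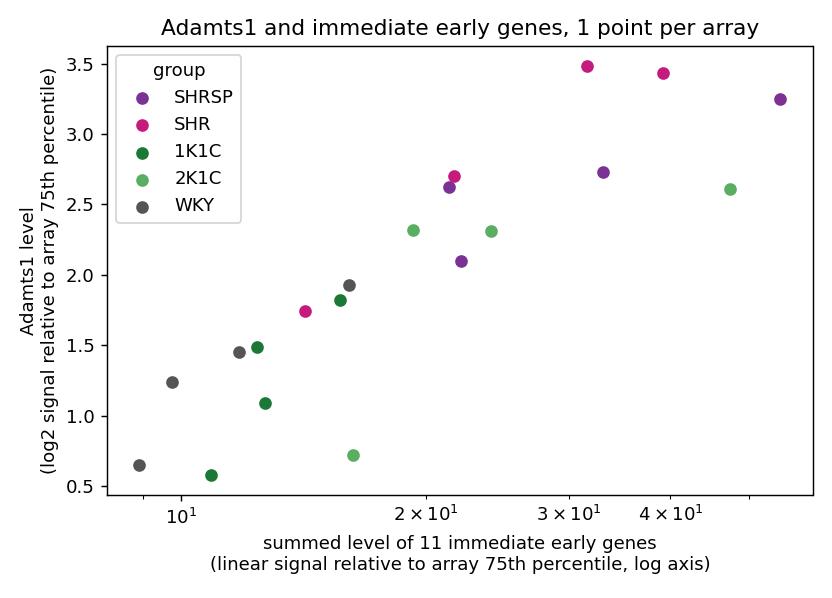
Adamts1 level (log2 signal relative to the 75th percentile of the array) against the summed level of 11 immediate early genes (log axis), 1 point per array, coloured by group. The WKY and 1K1C arrays lie at the low end of both axes, with sums of at most 16.1, and SHRSP replicate 3, at 54.6, has an Adamts1 level of 3.25.

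The promoter windows of Adamts1 and of Timp3, the tested protease or inhibitor gene most like it (r = 0.78 over 20 arrays, 0.76 with group means removed), are shown because the levels of these genes were alike across arrays. They are the 250 bases before the annotated start on GRCr8 from RefSeq, in which 7 of the 10 genes had a window: chr11:38427385-38427634 on the minus strand for Adamts1 and chr7:19459559-19459808 on the minus strand for Timp3. Capitals mark matches to a GC box (GGGCGG, either strand) or a TATA box (TATAAA, either strand).
Adamts1: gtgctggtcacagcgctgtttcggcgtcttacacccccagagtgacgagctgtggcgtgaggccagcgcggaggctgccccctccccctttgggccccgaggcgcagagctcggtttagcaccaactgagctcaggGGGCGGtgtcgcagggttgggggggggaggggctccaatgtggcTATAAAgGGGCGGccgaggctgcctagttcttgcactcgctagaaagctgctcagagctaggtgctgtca
Timp3: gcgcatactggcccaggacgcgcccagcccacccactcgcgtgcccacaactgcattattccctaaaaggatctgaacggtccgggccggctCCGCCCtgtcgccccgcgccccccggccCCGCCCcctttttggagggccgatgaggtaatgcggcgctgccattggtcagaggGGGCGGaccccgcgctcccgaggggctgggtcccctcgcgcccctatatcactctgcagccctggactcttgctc
The Adamts1 window held 2 GC boxes and 1 TATA box, and the Timp3 window 3 GC boxes and 0 TATA boxes, with no overlap between matches. A GC box stood in 32.4% and a TATA box in 13.1% of 27457 promoter windows of the same length. Neither window held an AP-1 site (TGANTCA, in 6.36% of windows), a cAMP response element (TGACGTCA, in 1.70%) or a CArG box (in 1.5%), each searched on both strands; this says only that these letters are not in these windows.

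Timp3, the inhibitor that binds to the matrix and also blocks several ADAMTS enzymes, was higher in SHRSP, SHR and 2K1C than in WKY by similar amounts, none of them called. Its level was -0.96, -1.20, -0.81 and -1.10 on the SHRSP arrays and -1.35, -1.16, -0.80 and -0.98 on the SHR arrays. It was -1.55, -1.70, -1.59 and -1.08 on the 1K1C arrays and -0.46, -0.68, -0.97 and -1.69 on the 2K1C arrays, against -1.27, -1.88, -1.72 and -1.43 on the WKY arrays. All SHRSP arrays lay above all WKY arrays, SHR overlapped by replicate 1, and 2K1C had 3 arrays above the WKY range and replicate 4 within it. The differences from WKY were 0.56 ± 0.22 in SHRSP (adjusted p = 0.222), 0.50 ± 0.22 in SHR (adjusted p = 0.323), 0.10 ± 0.22 in 1K1C (adjusted p = 0.895) and 0.63 ± 0.22 in 2K1C (adjusted p = 0.148). Without 2K1C replicate 4 the 2K1C difference was 0.87 (adjusted p = 0.146), and without 2K1C replicate 1 it was 0.46 (adjusted p = 0.269).

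Between the operations, Timp3 was lower in 1K1C than in 2K1C by 0.53 ± 0.22 on the log2 scale, as coded -0.53 (adjusted p = 0.184). Without 2K1C replicate 4, which lay at -1.69, the groups would not overlap, and the difference was -0.78 (adjusted p = 0.129). It was -0.37 without 2K1C replicate 1 (adjusted p = 0.43). In the same comparison all 7 smooth muscle markers were lower in 1K1C at an unadjusted p under 0.05 (median difference -1.71) and all 6 white adipocyte markers were higher (median 1.31), with none called. At that threshold 5 of 6 fibroblast markers (median 0.78) and 3 of 8 macrophage markers (median 0.79) were also higher, and 0 of them lower. Of all tested genes 21.5% passed it in either direction. The summed adipocyte level ran from 146 to 367 in 1K1C and from 60.5 to 129 in 2K1C. The part of tissue make-up in the Timp3 difference was not tested. By group mean the order was 2K1C, SHRSP, SHR, 1K1C and WKY, at -0.95, -1.02, -1.07, -1.48 and -1.58, and groups next to each other in it overlapped in their arrays.

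Timp4, the inhibitor found mainly in heart, brain and vessel wall, had higher values in SHR and 2K1C than in WKY, and in SHRSP a mean close to that of WKY, with no difference called. Its level was -0.39, -0.33, 0.31 and -0.58 on the SHRSP arrays and 0.32, 0.12, 0.22 and 0.76 on the SHR arrays. It was -0.01, -0.27, 0.22 and 0.25 on the 1K1C arrays and 0.71, 0.83, 0.46 and -0.22 on the 2K1C arrays, against -0.12, -0.37, -0.45 and -0.01 on the WKY arrays. Timp4 was the 1 of 7 genes whose SHR and WKY arrays did not overlap, beside 6.14% of all tested genes. None of the 7 showed this in 2K1C against WKY, beside 7.76%.

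The Timp4 differences from WKY were -0.01 ± 0.23 in SHRSP (interval -0.49 to 0.47), 0.59 ± 0.23 in SHR (adjusted p = 0.238), 0.28 ± 0.23 in 1K1C (adjusted p = 0.69) and 0.68 ± 0.23 in 2K1C (adjusted p = 0.132). SHRSP lay below SHR by -0.60 ± 0.23 (adjusted p = 0.944), a comparison within 1 slide, with SHRSP replicate 3 inside the SHR range. None of the 7 genes separated SHRSP from SHR without overlap, beside 3.5% of all tested genes. A second Timp4 probe gave 0.05 ± 0.21 in SHRSP, 0.64 ± 0.21 in SHR, 0.27 ± 0.21 in 1K1C and 0.53 ± 0.21 in 2K1C, and -0.59 ± 0.21 between SHRSP and SHR (adjusted p = 0.816). The probes correlated at 0.97 over the 20 arrays. They start at positions 1056 and 913 of the same transcript and share no base. The genes most like Timp4 were Id1, Cavin3 and Avpi1 (r = 0.84, 0.84 and 0.83).

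**Figure D3:**
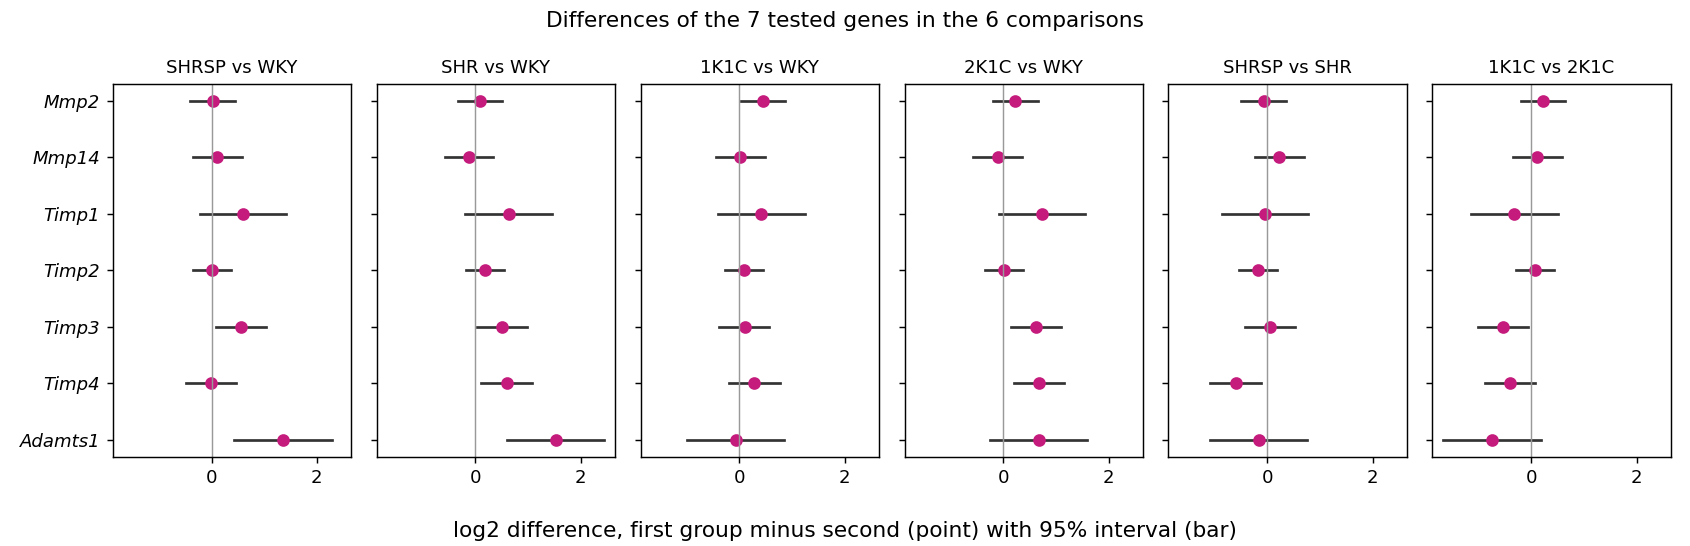
Log2 difference (point, first group minus second) with its 95% interval (bar) for the 7 tested genes in the 6 comparisons. The intervals of Adamts1 in SHRSP and SHR against WKY, of Timp3 in SHRSP, SHR and 2K1C against WKY, of Timp4 in SHR and 2K1C against WKY and of Mmp2 in 1K1C against WKY lie above 0. Those of Timp4 in SHRSP against SHR and of Timp3 in 1K1C against 2K1C lie below 0. The intervals of Mmp14, Timp1 and Timp2 include 0 in all 6.

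Timp1, an inducible inhibitor of most soluble MMPs, had a higher mean in every other group than in WKY, with no difference called. Its level was 2.95, 3.12, 3.14 and 2.73 on the SHRSP arrays and 2.06, 3.02, 3.35 and 3.67 on the SHR arrays. It was 2.83, 1.89, 3.54 and 2.98 on the 1K1C arrays and 3.11, 3.66, 3.19 and 2.59 on the 2K1C arrays, against 2.97, 1.99, 1.58 and 3.04 on the WKY arrays. WKY replicates 1 and 4 reached the levels of the other groups, while WKY replicates 2 and 3, SHR replicate 1 and 1K1C replicate 2 lay at 2.06 or below. The differences were 0.60 ± 0.39 in SHRSP, 0.63 ± 0.39 in SHR, 0.42 ± 0.39 in 1K1C and 0.74 ± 0.39 in 2K1C, with adjusted p of 0.465, 0.505, 0.718 and 0.267. Without WKY replicate 3, the lowest WKY array, they were 0.32, 0.36, 0.15 and 0.47.

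The spread of Timp1 lay between arrays rather than between spots of an array. With 1 array per rat, differences between rats and in the processing of their arrays cannot be told apart. Its probe was printed on 10 spots of each array, which differed by a median SD of 0.04 log2, against an SD of 0.59 between arrays of a group. The probe spans 1004 bases of the genome with its 60 bases, chrX:12542700-12543703 on rn4, and thus does not lie in a single exon. It is shown because the Timp1 values rest on it alone.
Timp1 probe: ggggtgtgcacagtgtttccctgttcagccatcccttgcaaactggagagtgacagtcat
The gene most like Timp1 over the 20 arrays was Mgp, matrix Gla protein, an inhibitor of calcification in the artery wall (r = 0.98, and 0.98 with group means removed). LOC100909539 and Ptgir, the prostacyclin receptor of smooth muscle and platelets, followed with r = 0.95 and 0.94. The 4 arrays lowest in Timp1 included 1K1C replicate 2 and SHR replicate 1, which had the lowest smooth muscle sums of all arrays (20.2 and 79.2). WKY replicates 2 and 3, also low in Timp1, had sums of 159 and 227.

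The other tested genes, Timp2, Mmp2 and Mmp14, form the activation complex of pro-Mmp2. Timp2 differed by at most 0.19 ± 0.17 from WKY in the 4 groups, with every interval between -0.35 and 0.55. Its level was 5.48 to 5.79 in SHRSP, 5.58 to 6.08 in SHR, 5.53 to 5.91 in 1K1C and 5.11 to 5.98 in 2K1C, against 5.26 to 5.77 in WKY. Mmp14 differed from WKY by 0.11 ± 0.22 in SHRSP, -0.12 ± 0.22 in SHR, 0.02 ± 0.22 in 1K1C and -0.11 ± 0.22 in 2K1C, with every interval between -0.58 and 0.57. Its levels overlapped in all groups, at 2.64 to 3.03 in SHRSP, 2.32 to 2.73 in SHR, 2.51 to 2.83 in 1K1C and 2.13 to 3.18 in 2K1C, against 2.10 to 3.13 in WKY. The gene most like Mmp14 was Col5a2, a fibrillar collagen chain (r = 0.83), and that most like Timp2 was Col14a1, a collagen that associates with fibrils (r = 0.84).

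Mmp2, the gelatinase that cuts denatured collagen and type IV collagen, had its highest mean in 1K1C, with no difference called. Its level was 4.28, 4.17, 4.53 and 4.29 on the 1K1C arrays, against 4.09, 3.97, 3.45 and 3.94 on the WKY arrays, so these arrays did not overlap (1 of 7 genes, beside 3.81% of all tested genes). The difference was 0.45 ± 0.20 (1.37-fold, adjusted p = 0.51), and 0.32 without WKY replicate 3. A second Mmp2 probe gave 0.29 ± 0.26, with overlapping arrays, at 1.07 to 1.84 in 1K1C against 0.71 to 1.30 in WKY, and the probes correlated at 0.79. In SHRSP, SHR and 2K1C the second probe differed from WKY by -0.26, -0.07 and -0.13, each ± 0.26. In the other groups Mmp2 ran from 3.54 to 4.07 in SHRSP, 3.81 to 4.10 in SHR and 3.54 to 4.62 in 2K1C, with differences from WKY of 0.02, 0.09 and 0.23, each ± 0.20, by the brighter probe. Between the operations it differed by 0.22 ± 0.20, and none of the 7 genes separated 1K1C from 2K1C without overlap, beside 9.75% of all tested genes. Among the 3 genes most like Mmp2 were Cercam and Pcolce, the enhancer of procollagen processing (r = 0.81 and 0.80), after a transcript known in the files only by an Ensembl identifier (r = 0.93).

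Mmp9, the gelatinase made mainly by leukocytes, was well above background on 2 of 20 arrays. Its probe lies at chr3:155992463-155992522 on rn4 and was printed on 10 spots per array. It is shown because the Mmp9 signal rests on it alone.
Mmp9 probe: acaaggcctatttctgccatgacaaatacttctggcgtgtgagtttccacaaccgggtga
On SHRSP replicate 4 the level was -5.65, with 6 of 10 spots well above background, and on 2K1C replicate 4 it was -4.37, with 10 of 10. On the other arrays no spot was well above background and the level ran from -7.88 to -7.51 in SHRSP, -8.48 to -7.77 in SHR, -8.34 to -7.66 in 1K1C, -8.14 to -7.70 in 2K1C and -8.02 to -7.75 in WKY.

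The same 2 arrays had the highest levels of lymphocyte genes. The summed level of the 6 tested genes of a 12-gene lymphocyte list, which was written after leukocyte genes such as Ptprc had been seen to stand out, was 18.6 on SHRSP replicate 4 and 47.4 on 2K1C replicate 4, against 0.396 to 2.6 on the other 18 arrays. Ptprc, the leukocyte antigen CD45, was at 2.32 and 3.48 on these arrays. None of the 12 was below background on all arrays. Of 7 neutrophil markers, Elane and Ngp were not well above background on any array, and the summed level of the 4 tested ones was 0.311 and 0.312 on these arrays, within the range of the others. The summed level of 8 macrophage markers was 37.9 and 57.4 on these arrays, and it was 41.3 on SHR replicate 1 and 57.7 on 1K1C replicate 2, where Mmp9 was not above background. The part of lymphoid tissue in the Mmp9 signal was not tested. The genes most like Mmp9 were Grk6, Lta and Sinhcaf (r = 0.95, 0.94 and 0.93), over points that include these 2 arrays.

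**Figure D4:**
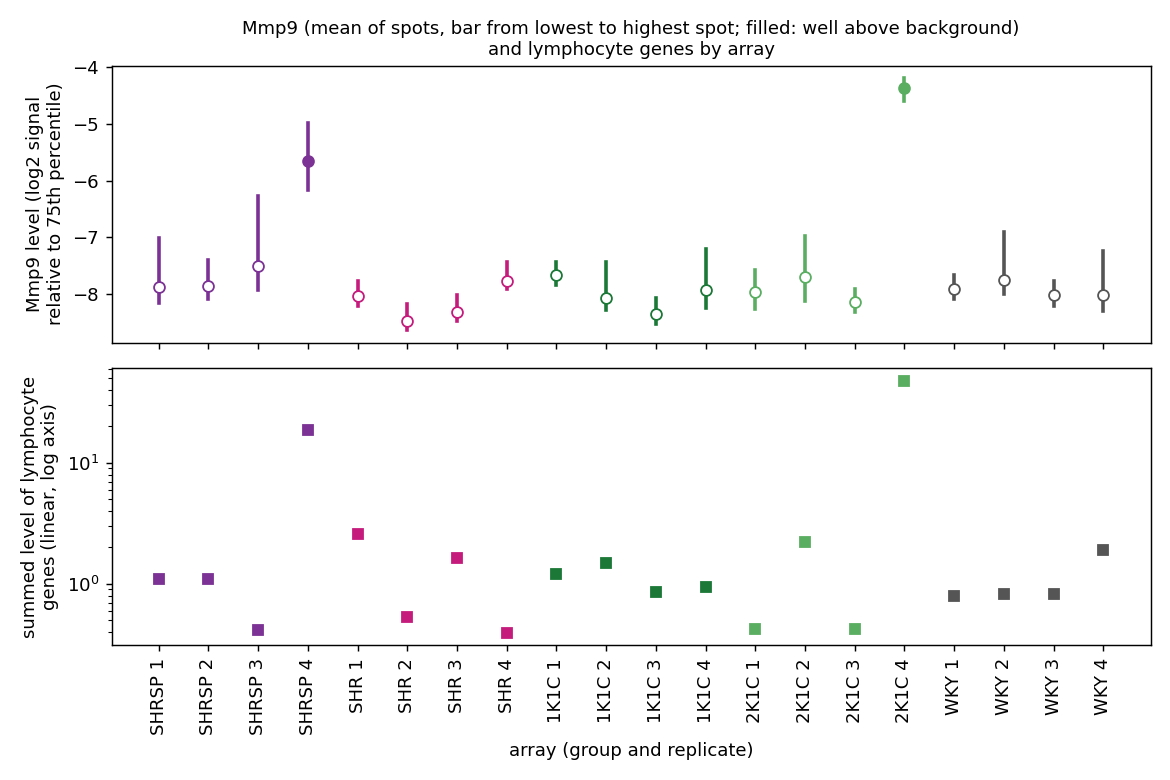
Upper panel, Mmp9 level by array (log2 signal relative to the 75th percentile; bar from the lowest to the highest spot, filled point where well above background); lower panel, summed level of 6 lymphocyte genes (log axis). SHRSP replicate 4 and 2K1C replicate 4 stand above all other arrays in both panels.

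Adamts4, an aggrecanase, was well above background on 4 of 20 arrays. These were SHR replicates 1 and 2, at -4.80 and -5.64, and 1K1C replicates 2 and 4, at -5.32 and -5.25. It was not well above background on any SHRSP, 2K1C or WKY array by both of its spots, with levels of -6.40 to -5.17 in SHRSP and -6.54 to -5.89 in 2K1C, against -6.81 to -5.69 in WKY. Mmp3, stromelysin, was not well above background by both of its spots on any array, and 1 of 2 spots passed on WKY replicate 1, where the level was -5.52 and the spots differed by an SD of 3.09. No fold change is given for these 3 genes.

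Around these genes, 87 other genes of matrix turnover were listed in 6 lists, of which 59 were tested. In SHRSP against WKY 1 of the 59 was called higher and 0 lower, beside 2.39% of all tested genes, and in SHR against WKY 2 were called higher and 0 lower, beside 1.84%. In the other 4 comparisons limma called 0 of the 59. At an unadjusted p under 0.05, 11 were higher and 5 lower in SHRSP against WKY (beside 16.7% of all genes in either direction), 10 and 3 in SHR against WKY (14%), 5 and 4 in 1K1C against WKY (9.09%) and 7 and 6 in 2K1C against WKY (22%). The counts were 0 and 1 in SHRSP against SHR (3.56%), and 12 and 6 in 1K1C against 2K1C (21.5%). The median difference of the 59 was 0.11 in SHRSP, 0.17 in SHR, 0.21 in 1K1C and 0.01 in 2K1C against WKY, beside 0.00, 0.02, 0.10 and 0.03 over all tested genes.

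Adamts10, an ADAMTS enzyme tied to fibrillin microfibrils, was 1 of 10 tested genes in the list of other ADAMTS genes. It was called higher in both hypertensive strains than in WKY. Its level was -2.63, -2.28, -2.42 and -2.62 on the SHRSP arrays and -2.47, -2.58, -2.38 and -2.35 on the SHR arrays, against -3.61, -3.21, -3.46 and -2.89 on the WKY arrays. Every array of both strains lay above every WKY array, and so did every 1K1C array, at -2.87 to -2.53. The share of all tested genes without overlap was 11.3% in SHRSP, 6.14% in SHR and 3.81% in 1K1C against WKY. The difference was 0.80 ± 0.14 in SHRSP (adjusted p = 0.00435) and 0.85 ± 0.14 in SHR (adjusted p = 0.00311), and both calls were lost when only the compared groups were fitted (adjusted p = 0.0849 and 0.11). It differed by 0.53 ± 0.14 in 1K1C (adjusted p = 0.205) and 0.28 ± 0.14 in 2K1C (adjusted p = 0.258).

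Plau, the urokinase plasminogen activator, was 1 of 9 tested genes in the plasminogen list and rose in SHR. Its level was -2.74, -3.53, -3.55 and -3.31 on the SHR arrays, against -5.22, -4.97, -5.34 and -3.84 on the WKY arrays. The groups did not overlap, beside 6.14% of all tested genes, and WKY replicate 4 was close to the SHR range. The difference was 1.56 ± 0.32 (adjusted p = 0.0164), and the call was lost without WKY replicate 2 (adjusted p = 0.0538) or replicate 3 (adjusted p = 0.0715), without scaling of the arrays (0.0714) and with only the compared groups fitted (0.138). Over 17 alternative settings the SHR difference from WKY ran from 0.73 to 1.89. Plau was well above background on every SHR and WKY array, but not on 1K1C replicate 1, at -5.36. In SHRSP Plau differed from WKY by 0.36 ± 0.32 (adjusted p = 0.599), and from SHR by -1.20 ± 0.32 (adjusted p = 0.247).

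Markers of other cell types moved in the same comparisons. Of 6 fibroblast markers, all tested, Dpt was called higher in SHRSP and Dpt and Dpep1 in SHR, each against WKY. In these comparisons 2.39% and 1.84% of all tested genes were called. Of the 6 markers, 3 had a higher mean in SHRSP than in WKY and 4 in SHR, and the others a lower one. The median difference was 0.41 in SHRSP and 0.60 in SHR. The summed level was 59.1 to 97.2 in SHRSP and 69.7 to 94 in SHR, against 50.8 to 80.7 in WKY. Of 6 neuron markers, 5 of them tested, Prph and Gap43 were called lower in both strains than in WKY. The median difference from WKY was -2.56 in SHRSP, -2.88 in SHR, -2.36 in 1K1C and -1.83 in 2K1C. Their summed level was 3.33 to 4.21 in SHRSP, 1.66 to 4.7 in SHR, 2.69 to 4.26 in 1K1C and 3.29 to 28.2 in 2K1C. On the WKY arrays it was 194, 14.5, 25.5 and 4.16. The part of these cells in the Adamts10 and Plau differences was not tested.

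No gene was called in the other 4 lists, and for each the 2 genes that differed most are given, each in the comparison where it differed most. Among the other MMPs (9 tested), Mmp24 differed by -1.54 ± 0.52 in SHRSP and Mmp27 by -1.49 ± 0.44 in 2K1C against WKY. Mmp24 also differed from WKY by -1.15 in SHR, -1.38 in 1K1C and -1.13 in 2K1C. Mmp27 differed from WKY by -0.31 in SHRSP, -0.46 in SHR and -0.44 in 1K1C. Among cathepsins and cystatins (11 tested), Cst6, a cystatin, differed by -1.58 ± 0.50 in SHRSP against WKY. Cst6 also differed from WKY by -1.38 in SHR, -1.06 in 1K1C and -0.64 in 2K1C. Ctsd, the lysosomal protease cathepsin D, differed by 0.96 ± 0.32 in 1K1C against 2K1C. Among activators and other inhibitors (10 tested), A2m, a broad protease inhibitor of plasma, differed by -2.12 ± 1.00 in 1K1C against 2K1C, and Cd44, a hyaluronan receptor, by -0.87 ± 0.24 in 1K1C against WKY. Among matrix substrates (10 tested), Eln, elastin, differed by 2.59 ± 0.85 in 2K1C and Bgn, the proteoglycan biglycan, by 1.53 ± 0.52 in SHRSP against WKY. Eln also differed from WKY by 2.56 in SHRSP, 1.61 in SHR and 0.98 in 1K1C. Bgn also differed from WKY by 1.28 in SHR, 0.48 in 1K1C and 1.41 in 2K1C. The matrix substrates had a median difference of 0.52 in SHRSP, 0.47 in SHR, 0.37 in 1K1C and 0.63 in 2K1C against WKY.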

How the data were processed

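Arrays were single-colour Agilent 60-mer rat arrays of 62976 features, hybridised with Cy3-labelled RNA. The deposited spot intensity is the background-subtracted processed signal that the scanner software wrote (Agilent Feature Extraction, version 10.7.3.1 in the submitters' processing notes), per the file headers. The authors' deposited value table held the same intensity for every spot (largest relative difference 0), linear and without scaling or centring; single-channel values have no direction. Here log2 of that signal minus the array's 75th percentile (574.5 to 1193) over non-control spots was used; spots marked as outliers were left out and spots of a probe averaged. A probe counted as well above background on an array where the majority of its spots did. Probes so on all 4 arrays of at least 1 group were kept (18899 of 30367), and the brightest probe stood for each of 16424 genes. All 5 groups were fitted with limma 3.58.1 in R 4.3.3 (lmFit and eBayes, two-sided, prior of 2.57 degrees of freedom), with Benjamini-Hochberg adjustment at 0.05 over all tested genes. Names came from the files, or from RefSeq through the accession (18355 probes matched, 2935 renamed). Coordinates are on rn4, or GRCr8 for promoters. The number of arrays limits the precision.

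The genes and lists were chosen with earlier results of these data known. Text names all 10 genes, up to 4 called genes of each list per comparison, for a list without a call the 2 largest differences, and the 3 genes most correlated with each tested gene, and added Mmp9. Groups came from sample titles. Replicate numbers, which are slide columns, did not pair the arrays: same-numbered arrays correlated at -0.57 to 0.64 in their deviations from group means. Alternatives were other normalizations, no filter on dim probes, array weights, a replicate block, the compared groups alone, every probe on its own and leaving out each array. The fit was run on simulated data with independent noise of the same spread in every group. Such data hold no outlying arrays, shared tissue make-up or slide differences.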

Additional observations from a re-analysis of the deposited data

Results flagged for a closer look

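In 6 of 60 sets of 4 arrays of a probe, the highest or lowest array stood apart from its group by Dixon's gap test at the 95% level; chance gives about 3 of 60. SHRSP replicate 4 was at -5.65 for Mmp9, with the next array of its group at -7.51, and 2K1C replicate 4 was at -4.37, with the next at -7.70. 2K1C replicate 4 also stood apart at the low end for Adamts1, at 0.72 beside 2.31, and for the second Timp4 probe, at -0.97 beside -0.11. It was the lowest of its group for all 7 tested genes. WKY replicate 3 was low in Timp2, at 5.26 beside 5.71. WKY replicate 1 was high in Mmp3, at -5.52 beside -7.54, on 1 of 2 spots. On 2K1C replicate 4, 14% of tested genes lay over 1 log2 unit from the rest of its group, a share between those of SHR replicate 1 (14.3%) and WKY replicate 1 (12.7%).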

How the results depend on the processing

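Of 742 alternative values of the members' differences, 658 kept direction and side of the threshold, 15 passed the threshold and 69 changed sign (72 when values that round to 0.00 are counted as changed); the main value of these 72 was at most 0.18 in size. With array weights, which gave SHR replicate 2 a weight of 5.21 and 2K1C replicate 4 one of 0.246, 3 genes were called in SHRSP against WKY (Timp1, Timp3, Adamts1), 4 in SHR against WKY and 4 in 2K1C against WKY (Timp1, Timp3, Timp4, Adamts1), and 2 in SHRSP against SHR (Timp4, Adamts1); over all genes the weights called 5447, 7509, 4723 and 863. The cause was not tested. Leaving out 1 array gave 0 to 1 calls in SHR against WKY (Adamts1) and 0 in the other comparisons. With the replicate block 0 members were called in every comparison, as without it; among the named list genes it brought Mmp24 in SHRSP against WKY past the threshold (adjusted p = 0.0395), and of 20 arrays 5 correlated best with their own number. Slide could not be a block, since no group spans several slides. Counts over all genes in the main fit and with the compared groups alone were 393 and 161 in SHRSP against WKY, 303 and 102 in SHR against WKY, 2 and 0 in 2K1C against WKY, and 59 and 39 in SHRSP against SHR. Without scaling they were 207, 120, 0 and 39; normexp gave 70 in 2K1C against WKY and quantile normalization 7 in 1K1C against WKY. Leaving out 1 array they ran from 172 to 911, 124 to 669, 0 to 870 and 38 to 54, and from 0 to 205 in 1K1C against WKY and 0 to 1896 in 1K1C against 2K1C. Leaving out both arrays high in lymphocyte genes, a choice made after seeing the data, called 0 members.

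The differences that changed sign were these. Timp4 in SHRSP against WKY was 0.00 with median scaling, 0.16 without scaling, 0.04 with array weights and 0.10 without both lymphocyte arrays. Against WKY in 2K1C, Mmp14 was 0.05 without both lymphocyte arrays and Timp2 -0.21 without scaling. Against WKY in 1K1C, Mmp14 was -0.05 with quantile normalization, -0.03 with normexp, -0.14 without scaling and -0.17 with array weights; Timp2 was -0.09 with quantile normalization, -0.09 with normexp and -0.06 without scaling; Timp3 was -0.06 without scaling; Adamts1 was 0.01 with median scaling and 0.20 with array weights. In SHRSP against SHR, Mmp2 was 0.03 with quantile normalization and 0.11 without scaling; Timp1 was 0.02, 0.01 and 0.14 with quantile normalization, with normexp and without scaling, and 0.05 without both lymphocyte arrays; Timp2 was 0.00 and Adamts1 0.02 without scaling; Timp3 was -0.03 with median scaling and -0.02 with array weights. In 1K1C against 2K1C, Mmp14 was -0.03 without both lymphocyte arrays, and Timp2 was -0.13 with quantile normalization, -0.10 with normexp and -0.10 without both lymphocyte arrays.

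Leaving out 1 array also changed signs, with these ranges. Mmp2 ran from -0.12 to 0.14 in SHRSP against WKY, -0.05 to 0.17 in SHR against WKY and -0.13 to 0.04 in SHRSP against SHR. Mmp14 ran from -0.09 to 0.26, -0.32 to 0.03, -0.18 to 0.16 and -0.30 to 0.05 in SHRSP, SHR, 1K1C and 2K1C against WKY, and -0.03 to 0.32 in 1K1C against 2K1C. Timp1 ran from -0.36 to 0.18 in SHRSP against SHR. Timp2 ran from -0.11 to 0.06, -0.03 to 0.15 and -0.10 to 0.19 in SHRSP, 1K1C and 2K1C against WKY, and -0.10 to 0.19 in 1K1C against 2K1C. Timp3 ran from -0.04 to 0.20 in 1K1C against WKY and -0.04 to 0.15 in SHRSP against SHR. Timp4 ran from -0.20 to 0.10 in SHRSP against WKY. Adamts1 ran from -0.30 to 0.15 in 1K1C against WKY and -0.53 to 0.06 in SHRSP against SHR. Signal over background limits Mmp3, Mmp9 and Adamts4.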
